A study of Mus musculus with 18 samples.

Results

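Growth hormone signals in liver through its receptor Ghr and the transcription factor Stat5b, and this gene set follows that signal to its targets and to the sex-dependent steroid enzymes. Of 10 listed genes, Ghr, Stat5b, Igf1, Igfals, Socs2, Cish, Hsd3b5, Cyp17a1 and Hsd17b2 have a probe set annotated to that gene alone. These 9 are described among 18193 genes on the array, each by its probe set with the highest mean over 18 arrays. The remaining listed gene, Srd5a1, was not analysed here. The set was put together with liver values in view, with growth hormone signalling genes chosen by symbol and steroid enzymes selected on their falls in liver after injury (the contrasts of 24 h and 48 h livers with sham), so the liver values of all 9 are given as a description, without a test. Kidney values were not used to choose them.

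Hormone binding activates the kinase Jak2 on the receptor, which phosphorylates Stat5b, and Stat5b then drives transcription of Igf1 and Igfals, the secreted growth factor and the subunit that holds it in its circulating complex. Socs2 and Cish are induced by the same pathway and act back on it as inhibitors. In rodents the pulsatile male secretion of the hormone also maintains male-biased liver genes, of which Hsd3b5 is a widely used example, while Cyp17a1 and Hsd17b2 make and inactivate sex steroids.

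The study asked about kidney function during massive liver necrosis. Male C57BL6 mice, an inbred strain, were injected intraperitoneally with D-galactosamine (GalN) at 4.5 g per kg and killed after 24 h or 48 h. Sham mice received saline and were killed after 24 h, and no sham group was taken at 48 h, so that comparison also spans different times after injection. GalN is an amino sugar that injures hepatocytes by trapping their uridine nucleotides. Whole-tissue RNA of perfused liver and kidney gave 6 groups of 3 arrays, lettered A, B and C, with 3 mice in each treatment group, whose age is not given in the sources used here. The submitters' wording leaves unclear whether RNA of the 3 mice was pooled, so p-values measure the spread between these arrays, which may be technical. In bulk tissue, fewer cells of a type and less RNA per cell cannot be told apart.

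All values are log2 gcRMA expression values, on which the lowest reading is 2.21 and the array medians lay between 2.36 and 2.43. A reading that recurs exactly in another array is treated as background, because recurrence is common at the bottom of the scale (89.5% of readings of 3 or less) and rare at the top (0.59% of readings over 10). How common it is between 3 and 10 is not given here. The liver 48 h array C stood apart, with an actin 3' minus 5' gap of 2.56 against 1.48 to 1.86 in sham livers and correlations of 0.983 and 0.984 with the other 48 h livers. The 48 h differences of the 9 genes are therefore also given without it where they move by over 1.5 times. Hepatocyte markers were measured in all livers, and at 24 h limma called 0 of the 6 tested (2 at an unadjusted p under 0.05, 0 by rank product), and 2 lower at 48 h. The log2 of their summed level was 18.29 to 18.38 in 24 h livers, 18.12 to 18.39 in 48 h livers and 18.45 to 18.53 in sham livers. In the same order, the macrophage markers stood at 14.25 to 14.41, 13.88 to 14.13 and 12.76 to 13.34, with 5 of 8 called higher at 24 h and 3 at 48 h. Of the 5 endothelial markers, 3 were called higher at 24 h and 1 at 48 h. Over all liver genes limma called 17.9% higher and 15.0% lower at 24 h, and 6.24% higher and 3.94% lower at 48 h. The part of the marker shifts in the values below was not tested.

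The promoters of Cish and Igfals are shown because they were the members in which the palindrome TTCNNNGAA, the core to which STAT5 proteins bind, occurred. RefSeq windows (build GRCm38.p6) from 250 bases before to 50 bases after the start were listed for Ghr, Stat5b, Igf1, Igfals, Cish and Hsd3b5, 10 windows in all, and the motif reads the same on both strands. No window was listed for Socs2, Cyp17a1 or Hsd17b2, so these were not searched. Matches are in capitals.
Cish (chr9:107296409-107296708, plus strand): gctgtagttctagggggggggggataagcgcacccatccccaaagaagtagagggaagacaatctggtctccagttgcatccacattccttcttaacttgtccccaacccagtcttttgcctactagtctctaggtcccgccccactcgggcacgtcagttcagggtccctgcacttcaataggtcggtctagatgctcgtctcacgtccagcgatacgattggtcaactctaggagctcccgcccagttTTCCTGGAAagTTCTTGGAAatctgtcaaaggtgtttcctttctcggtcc
Igfals, start 2 (chr17:24877981-24878280, plus strand): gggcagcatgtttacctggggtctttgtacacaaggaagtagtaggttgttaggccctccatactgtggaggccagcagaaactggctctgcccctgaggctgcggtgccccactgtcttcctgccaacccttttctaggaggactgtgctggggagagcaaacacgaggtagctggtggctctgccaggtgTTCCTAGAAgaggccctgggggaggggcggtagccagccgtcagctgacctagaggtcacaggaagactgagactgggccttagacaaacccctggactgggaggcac
Cish held 2 matches, TTCCTGGAA at bases 251 to 259 of its window and TTCTTGGAA at bases 262 to 270, just after the listed start. The Igfals window above held TTCCTAGAA at bases 193 to 201, and the window of another Igfals start held TTCTCAGAA at bases 15 to 23. The windows of Ghr, Stat5b, Igf1 and Hsd3b5 held none of these letters. Of 32851 mouse windows of this length, 8.30% held at least 1 match and 0.457% held 2 or more. Some genes, Igfals among them, have several windows, and 9.55% of 27025 genes held a match in at least 1 window. A match is a description of the letters and not of binding.

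In injured liver at 24 h, 6 of the 9 genes lay below every sham array, 0 lay above and 3 overlapped, with a median log2 difference of -0.81 against 0.00 over all genes tested. Over all 12071 genes tested in liver, 22.5% lay wholly below and 27.3% wholly above sham at 24 h. At 48 h, 4 of the 9 lay below every sham array and 5 overlapped, with a median of -0.58 against 0.03, and the background shares were 10.8% below and 17.7% above. Since liver falls entered the choice of genes, nothing is read from these counts. Between the times, 3 of the 9 lay wholly higher at 48 h than at 24 h and 1 wholly lower, with background shares of 20.8% and 20.0%. All 9 passed the filter on low values in both organs. Its threshold, the array median, lies close to the lowest reading, so genes with background readings can pass it. The differences ran from -6.86 (Hsd3b5) to 1.82 (Socs2) at 24 h, and the inhibitors Socs2 and Cish were the genes whose 24 h mean was above the sham mean. Both overlapped sham, and the sign for Cish turned when some arrays were left out.

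**Figure D1:**
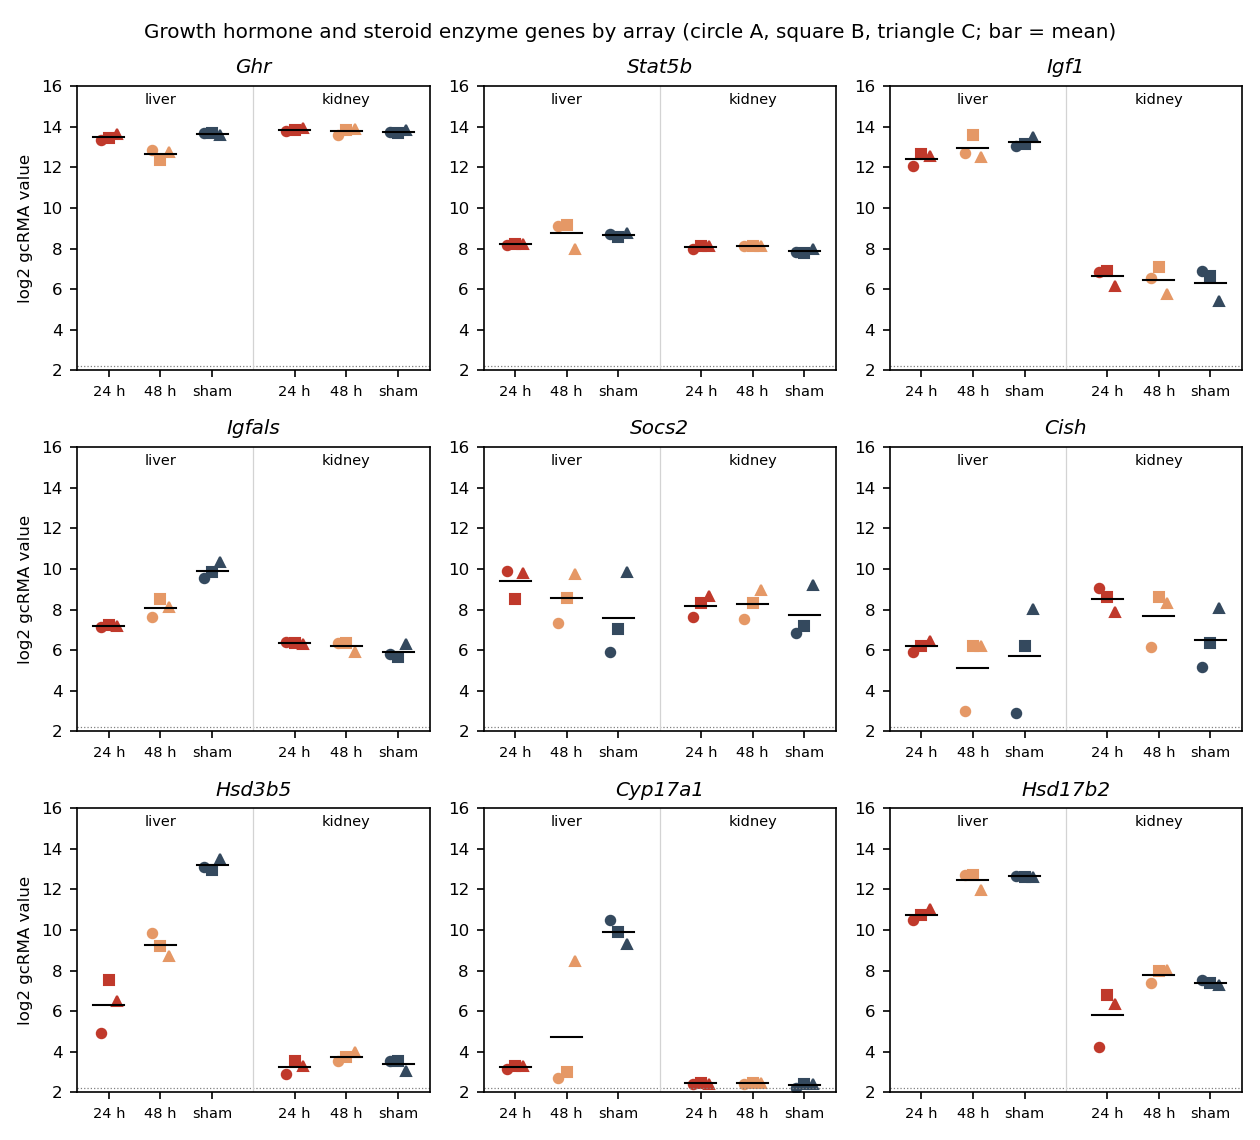
Log2 gcRMA values (vertical axis) of the 9 genes in each of the 18 arrays, grouped as 24 h, 48 h and sham within liver (left) and kidney (right). Points are single arrays, black bars are group means, and the dotted line is the lowest reading of 2.21. Hsd3b5 and Cyp17a1 drop furthest in liver, and Igfals lies lower at both times, whereas Socs2 and Cish scatter widely within the sham group of both organs.

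Ghr, the receptor, read 13.34, 13.46 and 13.66 in 24 h livers, 12.86, 12.37 and 12.75 in 48 h livers, and 13.67, 13.67 and 13.57 in sham livers. The 48 h livers were all below the others and the 24 h livers overlapped sham. The difference from sham was -0.15 at 24 h and -0.98 at 48 h, a 1.97-fold lower value at 48 h. The other probe sets of Ghr ordered the times differently. Set 1417962_s_at read 11.98, 12.27 and 12.13 at 24 h, 12.76, 12.69 and 12.67 at 48 h, and 13.40, 13.41 and 13.50 in sham, so the lowest livers were those at 24 h. Set 1451871_a_at gave a difference of -2.00 at 24 h and -1.26 at 48 h, the second becoming -0.74 without array C. All 3 sets were thus lower than sham at 48 h, with differences of -1.26 to -0.73 (-1.02 to -0.71 without array C), whereas at 24 h the difference ran over sets from -2.00 to -0.15. The mouse gene yields both the membrane receptor and a short binding protein by alternative splicing, and which transcript each set reads is not given in the sources used here. With quantile normalization the 24 h difference of the highest set was 0.13, with the sign turned, and with the mean of all sets it was -1.15.

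Stat5b, which carries the signal to the nucleus, read 8.16, 8.24 and 8.21 in 24 h livers, 9.12, 9.14 and 7.99 in 48 h livers, and 8.71, 8.57 and 8.78 in sham livers. The 24 h livers were all below sham, with a mean difference of -0.48. At 48 h arrays A and B were above all sham livers while the array that stood apart, C, was below them, so the mean difference of 0.06 became 0.44 without it. The other set of Stat5b read close to background in every group.

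Igf1, the growth factor secreted mainly by hepatocytes, read 12.06, 12.66 and 12.55 in 24 h livers, 12.71, 13.57 and 12.52 in 48 h livers, and 13.04, 13.16 and 13.49 in sham livers. The 24 h livers were all below sham, with a difference of -0.81, a 1.75-fold lower value, and at 48 h the groups overlapped, with a difference of -0.30 that was -0.09 without array C and -0.62 without array B. Igf1 has 4 sets, and their 24 h differences were -0.81, -0.11, -0.87 and -0.79. At 48 h the same sets gave -0.30, -0.51, -0.27 and -0.77, and without array C -0.09, -0.67, -0.13 and -0.71. Every set was below sham at both times, but they did not order the times alike: 1437401_at and 1434413_at were lowest at 24 h and 1452014_a_at at 48 h, while in 1419519_at the means of the times differed by 0.02.

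**Figure D2:**
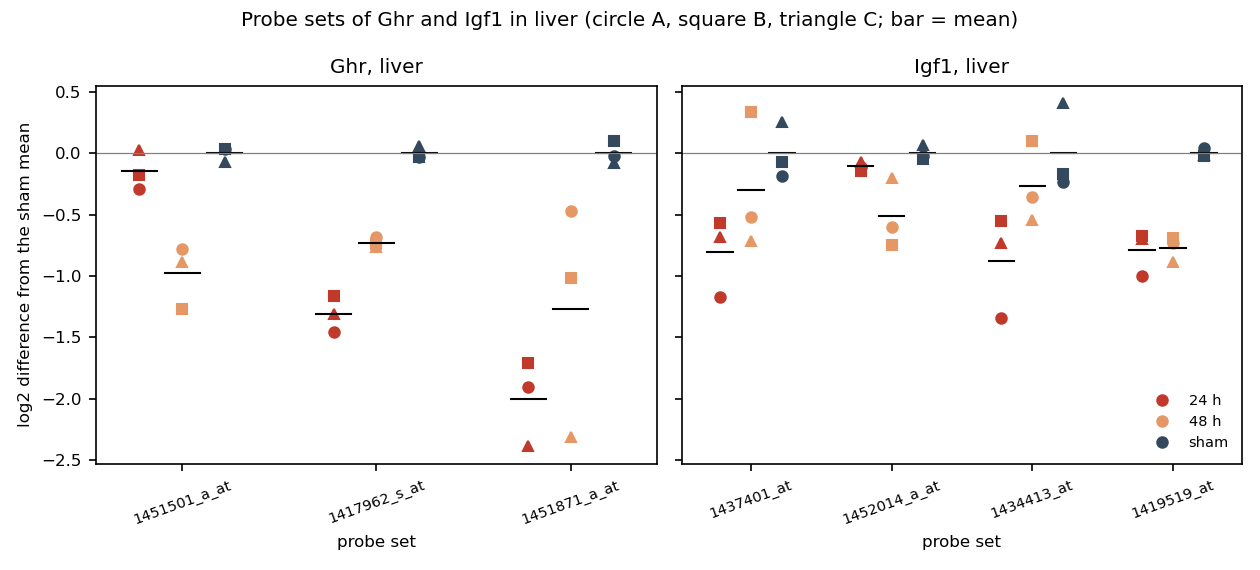
Log2 difference of each liver array from the sham mean of the same probe set (vertical axis) for the 3 sets of Ghr and the 4 sets of Igf1 (horizontal axis), by 24 h, 48 h and sham, with black bars at group means. The set with the highest mean, at the left of each panel, shows Ghr near sham at 24 h, whereas the other Ghr sets differ from sham by -1.31 and -2.00 at that time.

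Igfals, the acid-labile subunit, showed the clearest fall of the secreted pair. It read 7.15, 7.24 and 7.19 in 24 h livers, 7.66, 8.49 and 8.14 in 48 h livers, and 9.55, 9.85 and 10.32 in sham livers. No array of any group overlapped another group, so the order was 24 h, 48 h, sham from low to high. The mean was 7.19 ± 0.05 at 24 h, 8.10 ± 0.42 at 48 h and 9.91 ± 0.39 in sham (SD, n = 3), which is 6.56-fold and 3.51-fold below sham.

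Socs2, a feedback inhibitor of the receptor, read 9.90, 8.52 and 9.78 in 24 h livers, 7.35, 8.58 and 9.73 in 48 h livers, and 5.89, 7.02 and 9.85 in sham livers. The sham livers spanned 3.95, and sham C lay among the 24 h livers, so the mean differences of 1.82 at 24 h and 0.97 at 48 h lay within overlapping groups. The 48 h difference was 0.38 without 48 h C, and it ran from 0.12 without sham A to 2.10 without sham C. The 24 h difference ran from 0.97 without sham A to 2.95 without sham C. A second set, 1418507_s_at, gave 2.03 and 1.36 (0.51 without 48 h C) and also overlapped sham. Set 1438470_at separated the groups: it read 6.66, 5.18 and 6.57 in 24 h livers, while every other array of either organ lay between 2.21 and 2.51. The other 3 sets of Socs2 stayed near the lowest reading.

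Cish, the other inhibitor, read 5.93, 6.18 and 6.45 in 24 h livers, 3.02, 6.18 and 6.18 in 48 h livers, and 2.90, 6.18 and 8.03 in sham livers. The value 6.18 recurs exactly in 4 of these livers and is treated as background by the rule above, so no fold is given. The readings of 2.90 and 3.02 lie below it, so 6.18 is not the lowest level of this set. Sham C was again the highest array, and the groups overlapped at both times. The mean difference at 24 h was 0.48, on background readings in both groups, and ran from -0.92 to 1.65 with an array left out. The mean difference at 48 h was -0.58, and -1.11 without 48 h C, and ran from -1.98 to 0.58 with an array left out.

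Hsd3b5, a male-specific liver 3-keto reductase of the 3-beta-hydroxysteroid dehydrogenase family, read 4.93, 7.51 and 6.49 in 24 h livers, 9.86, 9.23 and 8.73 in 48 h livers, and 13.11, 12.94 and 13.47 in sham livers. The 3 groups did not overlap. The 24 h mean of 6.31 ± 1.30 was 116-fold below the sham mean of 13.17 ± 0.27, and the 48 h mean of 9.27 ± 0.57 was 14.9-fold below it (SD, n = 3). The 48 h livers were 7.79-fold above the 24 h livers. The 24 h livers also had the widest spread, with 4.93 as the lowest and 7.51 as the highest.

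Cyp17a1, the 17-alpha-hydroxylase and 17,20-lyase of androgen synthesis, read 3.16, 3.29 and 3.31 in 24 h livers, 2.70, 3.00 and 8.47 in 48 h livers, and 10.49, 9.92 and 9.31 in sham livers. Every GalN liver was below every sham liver, and all but 48 h C lay between 2.70 and 3.31, close to the lowest reading. The fold between group means is therefore a bound, at least 101-fold lower at 24 h and at least 36.3-fold lower at 48 h. The 48 h mean joins A and B, near the lowest reading, with C at 8.47, so its fold does not hold for each liver. Without array C the 48 h difference was -7.06 in place of -5.18. Among 48 h livers, C was thus the high array for Cyp17a1 and the lowest for Stat5b, Igf1, Hsd3b5 and Hsd17b2.

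Hsd17b2, which oxidises estradiol and testosterone to weaker steroids, read 10.48, 10.75 and 11.02 in 24 h livers, 12.71, 12.71 and 11.95 in 48 h livers, and 12.67, 12.61 and 12.60 in sham livers. The 24 h livers were 3.68-fold below sham with no overlap. The 48 h livers overlapped sham, with a difference of -0.17 that was 0.08 without array C, and lay 3.26-fold above the 24 h livers. The enzymes therefore stood at different points at 48 h: Hsd17b2 overlapped sham, Hsd3b5 lay between the 24 h and the sham values, and Cyp17a1 was near the lowest reading in 2 of 3 livers.

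In kidney none of the 9 genes was called by limma at 24 h against sham, where 5.31% of 12003 genes were called, at 48 h against sham (2.69%) or at 48 h against 24 h (1.61%). At an unadjusted p under 0.05 the counts were 2 (Stat5b, Hsd17b2), 1 (Stat5b) and 2 (Hsd3b5, Hsd17b2) of 9, against background shares of 23.8%, 19.4% and 18.3%. Kidney readings of Cyp17a1 are all background and those of Hsd3b5 are so in part, so little is read from either being called or not. The rank product test, which the submitters' design names, called Cish higher (adjusted p = 0.00464) and Hsd17b2 lower (adjusted p = 0.0141) at 24 h, 0 genes at 48 h, and Hsd17b2 higher at 48 h against 24 h (adjusted p = 0.00355), with background shares of 1.37%, 1.80% and 1.22%. On simulated kidney data this test called more unchanged genes than limma did, 58 against 10. The limma background itself rested on single arrays: 637 genes were called at 24 h, and from 15 (without sham B) to 669 with an array left out. At 48 h 323 were called, and from 29 (without sham A) to 469, and at 48 h against 24 h 193, and from 1 (without 48 h A) to 162.

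Hsd17b2 separated the kidney groups at 24 h. It read 4.25, 6.80 and 6.35 in 24 h kidneys, 7.38, 7.98 and 8.02 in 48 h kidneys, and 7.52, 7.40 and 7.29 in sham kidneys. All 24 h kidneys were below all others (14.3% of genes lay wholly below sham), with a log2 difference from sham of -1.60 ± 0.61 (SE; limma adjusted p = 0.171), and 48 h kidneys were higher than 24 h kidneys by 1.99 ± 0.61 (limma adjusted p = 0.156; 10.7% of genes lay wholly higher). Array A of the 24 h kidneys was the lowest of the 9 kidneys, and without it the differences were -0.83 (limma adjusted p = 0.108) and 1.22 (limma adjusted p = 0.0734). Both rank product calls of Hsd17b2 were lost without that array (adjusted p = 0.215 and 0.111), while that of Cish at 24 h was kept (adjusted p = 0.0219). Liver and kidney both had their lowest Hsd17b2 readings at 24 h, and limma called neither kidney difference.

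Cish read 9.04, 8.63 and 7.89 in 24 h kidneys, 6.16, 8.60 and 8.31 in 48 h kidneys, and 5.16, 6.35 and 8.06 in sham kidneys. The difference from sham was 2.00 ± 0.89 at 24 h (SE; limma adjusted p = 0.231) and 1.17 ± 0.89 at 48 h (limma adjusted p = 0.537), and sham C again overlapped the GalN arrays. No kidney reading of Cish recurs. Sham A and 48 h A nevertheless lie below 6.18, the reading treated as background in liver, and sham B lies close to it. The sham level, and with it the size of these differences and the rank product call of Cish, is therefore uncertain. Socs2 read 7.61, 8.31 and 8.66 in 24 h kidneys, 7.52, 8.33 and 8.97 in 48 h kidneys, and 6.86, 7.18 and 9.19 in sham kidneys. Its differences of 0.45 and 0.53 did not pass (limma adjusted p = 0.730 and 0.729).

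Stat5b read 7.97, 8.12 and 8.13 in 24 h kidneys, 8.13, 8.14 and 8.14 in 48 h kidneys, and 7.82, 7.78 and 7.97 in sham kidneys. The differences were 0.22 ± 0.07 (SE; limma adjusted p = 0.134) and 0.28 ± 0.07 (limma adjusted p = 0.0966), with no overlap at 48 h (background share 11.5%), and 2 of the 48 h readings were identical to the last digit. Among the alternatives run, limma called it only with array weights, at adjusted p = 0.0479 and 0.0220. Igfals read 6.39, 6.34 and 6.32 in 24 h kidneys, 6.34, 6.34 and 5.91 in 48 h kidneys, and 5.79, 5.67 and 6.29 in sham kidneys. The 48 h reading of 6.34 recurs exactly and is treated as background, and the 24 h kidneys lay close to it. The 24 h kidneys were above all sham kidneys (background share 12.7%) by 0.44 ± 0.19 (SE; limma adjusted p = 0.211), opposite in sign to liver.

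Ghr in kidney lay between 13.57 and 13.95 in all 9 arrays, with differences from sham of 0.10 at 24 h and 0.02 at 48 h (limma adjusted p = 0.577 and 0.975). Igf1 lay between 5.41 and 7.10, with overlapping groups and differences of 0.31 and 0.14 (limma adjusted p = 0.746 and 0.939). Cyp17a1 ran from 2.21 to 2.48, which are background readings. Hsd3b5 ran from 2.89 to 3.98, where 4 readings recur, 2 others lie less than 1 above the lowest reading, and the remaining 3, at 3.31, 3.73 and 3.98, do neither. Each kidney group thus held background readings of both enzymes, and no fold is given.

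Between the sham organs, Ghr averaged 13.64 ± 0.06 in liver and 13.75 ± 0.07 in kidney (SD, n = 3), with every kidney slightly above every liver, and Socs2 averaged 7.59 ± 2.04 and 7.74 ± 1.26 with overlap. Igf1 was 121-fold, Hsd17b2 37.4-fold and Igfals 15.9-fold higher in sham liver. Hsd3b5 was at least 877-fold and Cyp17a1 at least 187-fold higher there. At 24 h every liver remained above every kidney for Igf1, Igfals, Hsd17b2 and Hsd3b5.

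The sham spread of the inhibitors was wide for this data set. The SD of Socs2 over the 3 sham livers was 2.04, a width reached by 0.174% of the 12071 liver genes, whose median SD was 0.19. Cish had an SD of 2.60 (0.0746%), with background readings in sham A (2.90) and sham B (6.18). In sham kidneys the SDs were 1.26 for Socs2 (0.292% of 12003 genes at least as wide, median 0.13) and 1.46 for Cish (0.183%). In both organs and for both genes sham A was the lowest and sham C the highest of the sham arrays. Whether arrays of 1 letter in liver and kidney come from the same mouse is not stated.

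Deviations from the group means were compared between liver and kidney arrays of the same group and letter, over 9 pairs and for 9 genes. For Socs2 Pearson r was 0.856 and Spearman rho 0.783, with exact permutation p = 0.0417 and 0.0787 (two-sided, 216 rearrangements of letters within groups), and Benjamini-Hochberg adjusted values of 0.250 and 0.354. For Cish r was 0.903 and rho 0.829, with exact permutation p = 0.0556 for both and adjusted values of 0.250 and 0.354. Of its liver readings, 4 are the recurring 6.18, and those of 2.90 and 3.02 lie less than 1 above the lowest reading. The relation of Cish therefore rests largely on background readings. Without the 2 pairs farthest from the median liver deviation, r was 0.624 for Socs2 and 0.741 for Cish. Neither relation passed the correction. Over 6152 genes tested in both organs and without recurring readings, the median r was 0.109, and 1.32% reached the r of Socs2. Cish has recurring readings and is not among these genes.

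**Figure D3:**
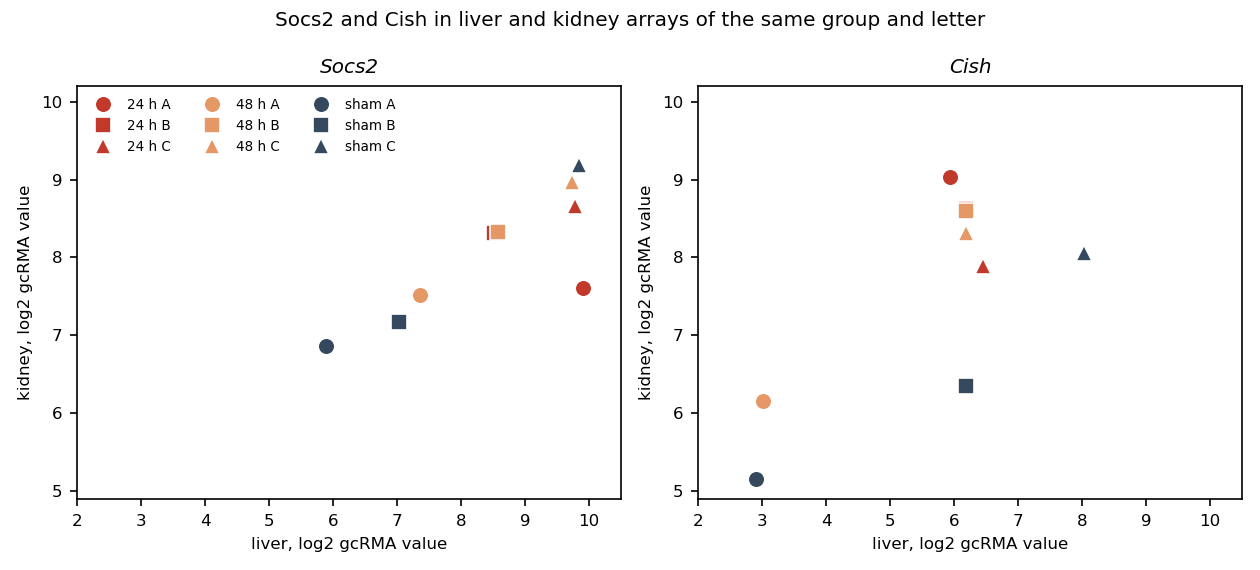
Log2 gcRMA values of Socs2 (left) and Cish (right) in kidney (vertical axis) against liver (horizontal axis), 1 point per group and letter. Shapes give the letter and colours the group. The sham C pair is at 9.85 in liver and 9.19 in kidney for Socs2, far from sham A at 5.89 and 6.86.

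By a rule over 9 liver arrays, the genes most like each of 4 members were named by Pearson r, as a description in which the points share groups and arrays. For Hsd3b5 they were Slc38a3 (r = 0.988), Xiap (0.983) and Sesn3 (0.982), and 211 of the other liver genes reached an r of 0.9. For Ghr they were Alas2 (0.958), Prnp (0.952) and Slco1a1 (0.950), with 23 genes at that level. For Socs2 they were Slc40a1 (0.985), Smad7 (0.955) and Mt1 (0.952), with 9 genes. For Igf1 they were Akap9 (0.949), Mast3 (0.948) and Utrn (0.942), with 33 genes. Each member was read by its set with the highest mean only. Other sets of Ghr and Igf1 ordered the times differently, so these neighbours belong to the set used.

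The other genes of the pathway were read from 5 companion lists that are not members, with limma over all genes of a tissue. These lists were also chosen with earlier results of these data known. Their counts and p-values are therefore a description and not independent support. Of 21 other genes of the growth hormone pathway tested in liver, 2 rose and 2 fell at 24 h, where limma called 17.9% of all genes higher and 15.0% lower, with a list median of 0.08. Grb10, an adaptor that inhibits insulin and growth factor receptors, rose 5.87-fold (7.12 ± 0.12 at 24 h, 4.57 ± 0.51 in sham; SD, n = 3; limma adjusted p = 8.26e-04). Ptpn1, a tyrosine phosphatase that acts on Jak2 and the insulin receptor, rose 2.91-fold (limma adjusted p = 0.0278). The insulin receptor Insr fell 4.48-fold (8.93 ± 0.28 at 24 h, 11.09 ± 0.69 in sham; limma adjusted p = 0.00442) and Igf2r, which clears IGF2, 1.97-fold (limma adjusted p = 0.0461). Jak2 itself was at 7.82 ± 0.10 in 24 h livers and 7.67 ± 0.36 in sham livers (limma adjusted p = 0.630). Stat5a, the close relative of Stat5b, was at 6.91 ± 0.18 and 6.19 ± 0.39 (limma adjusted p = 0.105). Socs3 was at 9.86 ± 0.50 and 8.31 ± 1.98 (limma adjusted p = 0.299), Igf1r at 4.51 ± 0.22 and 4.14 ± 0.37 (0.234), and the carrier Igfbp3 at 8.27 ± 1.46 and 8.30 ± 0.09 (1.00). The calls of Ptpn1 (without 24 h A, B or C or sham A or B) and Igf2r (without 24 h A or B, 48 h C or any sham liver) were lost when an array was left out. Grb10 and Insr were still called with the mean of all their probe sets, but with differences of 0.85 in place of 2.55 and of -0.72 in place of -2.17.

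At 48 h 1 of the 21 pathway genes was called in liver, Igf2, with both groups at background readings and no call with the mean of its sets, and 0 were called in kidney at either time with limma. Among them Jak2, Stat5a, Socs3, Igf1r and Igfbp3 were not called at 48 h in liver or at either time in kidney, with limma adjusted p from 0.140 to 1.00. At an unadjusted p under 0.05 those kidney counts were 2 and 2, and the rank product test called 0 and 1.

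Of 14 male-biased liver genes tested, 5 fell and 0 rose at 24 h, where limma called 15.0% of all genes lower and 17.9% higher. The list median was -1.03 against 0.00 over all genes. At 48 h 7 fell and 0 rose, with a median of -1.24, where limma called 3.94% of all genes lower. Nudt7, a peroxisomal coenzyme A diphosphatase, fell 18.7-fold at 24 h (11.06 ± 0.55 at 24 h, 15.29 ± 0.06 in sham; SD, n = 3; limma adjusted p = 3.33e-04). Elovl3, a fatty acid elongase, fell 39.8-fold at 24 h (limma adjusted p = 0.0116), and Egfr, the epidermal growth factor receptor, fell 4.29-fold (limma adjusted p = 0.00408). Slco1a1, an organic anion uptake carrier, had a log2 difference of -1.53 at 24 h (limma adjusted p = 0.00581) and of -4.23 at 48 h, an 18.8-fold fall (7.52 ± 0.44 at 48 h, 11.75 ± 0.22 in sham; limma adjusted p = 0.00148). C6, a complement component, fell 5.13-fold at 48 h (limma adjusted p = 0.00817), Cyp7b1, an oxysterol 7-alpha-hydroxylase, 4.80-fold (0.0186) and Gstp1, a glutathione transferase, 1.42-fold (0.0145). The list was not uniform in time: at 48 h against 24 h 3 of its genes rose and 5 fell, where limma called 14.6% of all genes higher and 13.1% lower. Nudt7 was among the first (2.42, limma adjusted p = 0.00329) and Slco1a1 among the second (-2.70, limma adjusted p = 8.91e-04). Without sham B 2 male-biased genes were called at 48 h in place of 7. Cyp7b1 also lost its call without 48 h A or B or sham C, and Gstp1 without 48 h A. With the mean of all sets the differences were -1.14 for Egfr in place of -2.10, -1.40 for Cyp7b1 in place of -2.26 and -4.98 for Nudt7 in place of -4.23. That of Elovl3, -5.31, was -3.83 without 24 h A. Under these settings the 4 calls held.

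Of 10 female-biased liver genes tested, limma called 0 at either time against sham, with medians of 0.07 and 0.25. At an unadjusted p under 0.05 the counts were 2 and 3, against 42.8% and 25.3% of all genes, and the rank product test called 0 at 24 h and 3 higher at 48 h, Abcd2, Acot3 and Nipal1, against 4.95% and 2.36%. These 3 are named because the count is small. Acot3, a peroxisomal acyl-CoA thioesterase, was at 9.32 ± 1.26 in 48 h livers and 6.05 ± 2.04 in sham livers (SD, n = 3; limma adjusted p = 0.136). Abcd2 was at the lowest reading in every sham and 24 h liver. It passed the filter only through the 48 h livers, so nothing is read from its call. Array C was the highest 48 h liver for all 3. Without it the log2 differences were 2.55 for Acot3 in place of 3.27 and 1.47 for Abcd2 in place of 2.64. The rank product test then called Acot3 (adjusted p = 0.0345) and not Nipal1 (adjusted p = 0.168), Abcd2 did not pass the filter, and Cyp39a1 was called lower (adjusted p = 0.0455).

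Of 27 other steroid enzymes and receptors tested in liver, 11 fell and 1 rose at 24 h, where limma called 15.0% of all genes lower and 17.9% higher. The list median was -0.37. At 48 h 1 fell and 2 rose, with a median of 0.03, where limma called 3.94% of all genes lower and 6.24% higher. At 48 h against 24 h 12 rose and 1 fell, where limma called 14.6% of all genes higher and 13.1% lower. Relatives of Hsd3b5 were among those that fell at 24 h. Hsd3b2 fell 28.3-fold (4.16 ± 0.57 at 24 h, 8.99 ± 0.22 in sham; SD, n = 3; limma adjusted p = 3.84e-04). Hsd3b3 fell 8.45-fold (9.21 ± 0.53 at 24 h, 12.29 ± 0.06 in sham; limma adjusted p = 3.38e-04). Hsd3b7, an enzyme of bile acid synthesis, fell 6.31-fold (11.28 ± 0.38 at 24 h, 13.94 ± 0.11 in sham; limma adjusted p = 2.76e-04). Hsd3b2, Hsd3b3 and Hsd3b5 are close paralogs, and how far their probe sets read each other was not tested. At 48 h Hsd3b2 and Hsd3b7 differed from sham by -0.16 and -0.35 and Hsd3b3 by -0.91 (limma adjusted p = 0.882, 0.359 and 0.0754), whereas the difference of Hsd3b5 was -3.90. The estrogen receptor Esr1 fell 7.89-fold at 24 h (5.88 ± 0.48 at 24 h, 8.86 ± 0.31 in sham; limma adjusted p = 7.92e-04) and was at 8.91 ± 0.45 at 48 h (limma adjusted p = 0.973). At 48 h Hsd11b1, which regenerates active glucocorticoid, fell 1.88-fold (limma adjusted p = 0.0161) and Hsd17b11 rose 1.82-fold (0.0199). Cyp21a1 was also called higher, on readings that are background in part (4.17 ± 1.06 at 48 h, 2.26 ± 0.03 in sham; limma adjusted p = 0.0425). It passed the filter only through the 48 h livers, the group where it was high, so nothing is read from its call. Without sham B none of the 3 calls at 48 h remained. Hsd17b11 was also not called without 48 h A or B or sham A, and Cyp21a1 was not called when any 1 of the 24 h or sham livers was left out. With the mean of all sets these were called with differences of -1.65 for Hsd3b3 in place of -3.08, -2.32 for Esr1 in place of -2.98 and 0.96 for Cyp21a1 in place of 1.92.

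**Figure D4:**
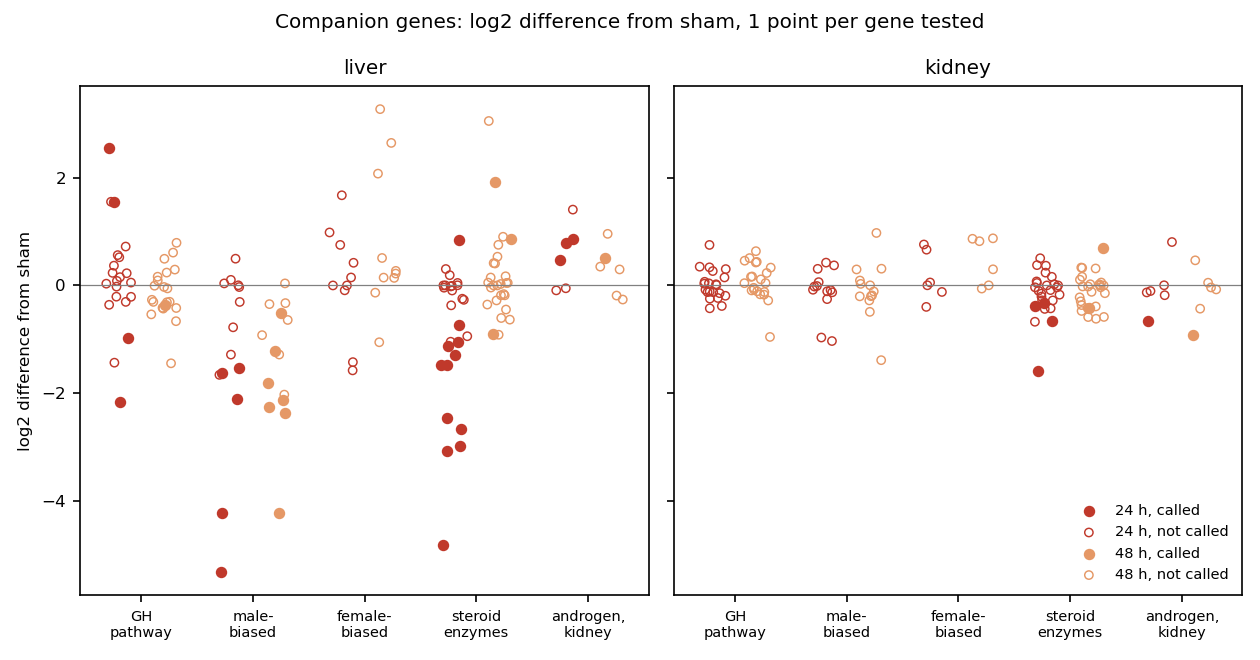
Log2 difference from sham (vertical axis) of each companion gene tested, by list (horizontal axis), at 24 h and 48 h in liver (left) and kidney (right). Filled points were called by limma and open points were not. In liver the steroid enzyme list has 11 falls at 24 h and 1 at 48 h, and the male-biased list has 5 and 7. Limma called 15.0% of all liver genes lower at 24 h and 3.94% at 48 h.

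In kidney 4 of 26 steroid enzymes fell at 24 h and 0 rose, where limma called 3.10% of all genes lower. Akr1d1, a 5-beta-reductase, fell 2.99-fold (log2 difference -1.58 ± 0.18, SE; limma adjusted p = 0.0167). Akr1c14 fell by 0.65 (limma adjusted p = 0.0452), Hsd17b12 by 0.38 (0.0498) and the electron donor Cyb5a, which aids the lyase step of Cyp17a1, by 0.33 (0.0254). At 48 h, where limma called 1.29% of genes higher and 1.40% lower, Hsd11b2, which inactivates glucocorticoid in the distal nephron, rose 1.61-fold (12.43 ± 0.08 at 48 h, 11.74 ± 0.26 in sham; limma adjusted p = 0.0390) and Fdx1, the ferredoxin that serves mitochondrial steroid hydroxylases, fell by 0.41 (0.0352). Of 6 genes known to respond to androgen in kidney, Odc1, the polyamine enzyme, fell 1.58-fold at 24 h (15.29 ± 0.09 at 24 h, 15.95 ± 0.03 in sham; limma adjusted p = 0.0329) and 1.89-fold at 48 h (limma adjusted p = 0.0235; a log2 difference of -1.63 with the mean of its sets in place of -0.92), and the other 5 were not called (background 2.21% higher at 24 h). All these kidney calls depended on single arrays: without sham B 0 companion genes were called at 24 h or at 48 h, and without sham A, 48 h B or 48 h C 0 at 48 h. Proximal tubule markers gave 0 calls of 5 at 24 h (0 at an unadjusted p under 0.05 and 0 by rank product) and 1 higher and 1 lower at 48 h. Distal nephron markers gave 0 limma calls of 5 at either time. Their median log2 difference was 0.50 at 24 h and 0.63 at 48 h, against 0.00 over all genes. At an unadjusted p under 0.05 their counts were 3 and 1, and rank product called 1 higher and 0. The part of this shift in the rise of Hsd11b2 was not tested. Markers of adrenal cortex, a tissue next to the kidney, read near the lowest value in all 9 kidneys, with a log2 of the sum of 7 genes from 5.18 to 5.23.
In liver the same androgen list gave 3 rises at 24 h, Odc1 (1.73-fold, limma adjusted p = 0.00738), Gusb (1.39-fold, 0.0108) and Cyp4b1 (1.81-fold, 0.0349), and Gusb also rose at 48 h (1.43-fold, 0.0233). Over all liver genes limma called 17.9% higher at 24 h and 6.24% at 48 h. The call of Cyp4b1 was lost without any 24 h liver, 48 h B or sham C, and that of Gusb at 48 h without 48 h A or B or sham B or C. With quantile normalization or median centring neither Cyp4b1 nor Gusb was called.

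The response of liver was set against that of kidney as a difference of differences, for companion genes only, in a fit that treats the organs as independent. Of 71 genes, 19 differed at 24 h, where limma called 31.3% of 11662 genes, and 14 at 48 h (13.4%). Odc1, which rose in liver and fell in kidney at 24 h, differed by 1.45 ± 0.20 (SE; limma adjusted p = 1.17e-04). Hsd3b3 differed by -3.15 ± 0.28 (limma adjusted p = 3.63e-06) and Nudt7 by -4.29 ± 0.46 (limma adjusted p = 1.70e-05).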

How the data were processed

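The log2 gcRMA values, 1 per probe set and array, were deposited by the authors, computed with GCRMA per the submitters' processing notes; its version is not given in the sources used here. They were used as deposited. Of 45101 probe sets, 34945 are named for 1 gene in the platform annotation, and the set with the highest mean over 18 arrays stood for each gene. Groups came from the labels. Testing required a value above the array median in at least 3 of 9 arrays, with limma 3.58.1 in R 4.3.3 (intensity trend, 3 group means, two-sided, Benjamini-Hochberg over all genes tested, called under 0.05). Rank products were run with 100 permutations, and the adjusted p is the smaller of those of the higher and the lower direction. A fold is a lower bound where the lower group has a recurring reading or one less than 1 above the lowest. Companion genes were named by rule: up to the 4 called genes with the smallest p per list and comparison with sham, and Jak2, Stat5a, Socs3, Igf1r, Igfbp3 and Esr1 (24 h liver values are given for those not called). Likeness took the 3 highest r. The members and the lists were chosen with earlier results of these data known. The methods were also run on simulated data for 24 h against sham. At an adjusted p under 0.05 rank product called 30 unchanged genes in liver and 58 in kidney, where limma called 7 and 10. A larger part of the rank product calls than of the limma calls were thus unchanged genes. The alternatives covered filters, the mean of all sets, scaling by quantiles or medians, limma options (trend, robust, array weights), the letter as a block, which arrays enter the fit, and leaving out each array. Arrays have no read depth, and 3 per group limit the precision.

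Whether letters pair the arrays of a tissue was checked from correlations of deviations from group means over genes. Same-letter correlations between groups ran from -0.160 to 0.0983 in liver and from -0.139 to 0.276 in kidney, with 0 and 2 of 9 above 0.1, so the letters were not treated as pairs within a tissue. Between liver and kidney of the same group, same-letter correlations ran from -0.0958 to 0.351, with 3 of 9 above 0.1, against 0 of 18 between other letters, and the fit of liver against kidney has no term for the letter across organs. Rank products without the liver 48 h array C and without the kidney 24 h array A were added after seeing the data.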

Additional observations from a re-analysis of the deposited data

Results flagged for a closer look

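Igfals at 24 h was lower than sham in every liver and higher than sham in every kidney, a difference between the organs of -3.15 (log2, liver difference minus kidney difference) that was not tested, because the set was put together with liver values in view. The kidney rise of 0.44 was not called (limma adjusted p = 0.211), and 12.7% of genes lay wholly above sham there at 24 h. Among 48 h kidneys 2 readings recur at 6.34 and are treated as background, and the 24 h kidneys read 6.32 to 6.39.

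Several companion genes responded differently in liver and kidney by limma's difference of differences. Of 71 companion genes 19 were called at 24 h, where limma called 31.3% of all genes, and 14 at 48 h (13.4%). The 24 h count is thus not above the share over all genes. Only genes named above for the same time are listed here. At 24 h, on the same scale, the steroid enzymes differed by -4.15 (Hsd3b2), -3.15 (Hsd3b3), -3.16 (Hsd3b7), -0.91 (Hsd17b12) and 0.32 (Cyb5a), and the receptor Esr1 by -2.83. In the male-biased list Elovl3 differed by -5.69, Nudt7 by -4.29 and Egfr by -1.99. In the growth hormone pathway Grb10 differed by 2.63, Ptpn1 by 1.69 and Insr by -2.04. Among androgen-responsive genes Odc1 differed by 1.45 and Cyp4b1 by 1.03. At 48 h the differences were -2.84 for Slco1a1, -2.67 for C6, -2.08 for Cyp7b1 and -0.39 for Gstp1. Others at that time were 1.45 for Hsd17b11, 0.56 for Fdx1, 0.95 for Gusb and 1.27 for Odc1. Cyb5a at 24 h and Fdx1 and Odc1 at 48 h were called in kidney and not in liver. The adjusted p of these 22 differences ran from 3.63e-06 to 0.0468.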

How the results depend on the processing

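The liver differences of the 9 genes gave 324 values under the alternatives, of which 9 moved by more than the spread between arrays. These were differences of Ghr, Stat5b, Igf1 and Hsd17b2, and the sign turned for Ghr at 24 h with quantile normalization (0.13) and at 48 h against 24 h with the mean of all sets (0.16). With median centring the median of all genes in liver was -0.15 at 24 h and -0.10 at 48 h, against 0.00 and 0.03 as deposited. In kidney 0 members were called in each comparison, and 0 when any array was left out; array weights called 1 at 24 h and 1 at 48 h, and rank products 2 at 24 h and 1 at 48 h against 24 h (1 and 0 without 24 h A, an alternative chosen after seeing the data). With the array letter as a replicate block the member counts were 0. Companion genes called in liver at 24 h numbered 24 (rank product 8; arrays left out 18 to 26). At 48 h they numbered 12, against 32 with array weights, 20 with all 18 arrays, 7 with only the 6 arrays compared and 3 with the replicate block, and 2 (without sham B) to 10 with an array left out. At 48 h against 24 h they numbered 29, against 19 with no filter, 18 with only the 6 arrays, 9 by rank product, and 18 to 24. In kidney at 24 h they numbered 5, against 2 with no filter, 1 with quantile normalization, 1 with the replicate block, 2 with only the 6 arrays, 1 by rank product, and 0 to 3. At 48 h they numbered 3, against 1 with no filter, 5 with the mean of sets, 5 with median centring, 13 with array weights, 1 with the replicate block, and 0 to 5. At 48 h against 24 h they numbered 1, against 0 with no filter, the replicate block, all 18 or only 6 arrays and rank product, 2 at percentile 60, with median centring and with the robust option, 3 with the mean of sets, and 0 to 1. The tissue difference at 48 h numbered 14, against 9 with the replicate block. The cause of these changes was not tested. Of 32 named companion calls, 13 held under every alternative fitted, 11 of 15 in liver at 24 h, 2 of 9 in liver at 48 h and 0 of 5 and 0 of 3 in kidney; the replicate block ended 15.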
